A study of Mus musculus with 7 samples.

Results

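Chromatin modifier and remodeller genes encode the enzymes, readers and motors that set how tightly DNA is packed. They were examined in mouse epidermis after deletion of Abca12, a lipid transporter that keratinocytes need to build the skin barrier. The genes were taken by symbol: the Kmt2 and Kmt5, Setd, Suv39, Ehmt, Ezh, Prmt and Kdm families, the Kat2 to Kat8 genes, Ep300, Crebbp, Hdac, Sirt, Ncor, Smarc, Chd1 to Chd9, Arid1 to Arid5, Brd1 to Brd9, Cbx, Scmh1, Scml2, Phf, Dnmt and Tet1 to Tet3. Of 160 annotated protein-coding genes with such symbols, 68 (42.5%) were in the deposited table of 7091 genes. The other 92 were not analysed here. Of all 21951 annotated protein-coding genes, 29.4% were in that table. That table lists only genes whose adjusted p-value was below 0.05 for the authors, so each of the 68 had already been called on these libraries, and a further test of them is conditional on that choice.

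The mutants, called KA, had the genotype K14-CreERT;ABCA12-cKO, in which the keratin 14 promoter of basal keratinocytes drives a Cre recombinase that tamoxifen switches on. Controls were ABCA12-c/c mice without CreERT, so the deletion and the presence of an active recombinase cannot be told apart. All mice of both groups received tamoxifen at 8 weeks of age, at 1 mg/40 g for 3 consecutive days, and epidermis was separated from telogen (resting hair cycle) skin 2 weeks later. There were 4 KA libraries, of which KA 1 and KA 2 came from males and KA 3 and KA 4 from females, and 3 control libraries, of which controls 1 and 3 came from females and control 2 from a male. Abca12 itself was not analysed here, so the genotypes rest on the labels.

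In chromatin, methyl and acetyl groups on histone tails are written, erased and read by separate protein families. Trithorax-type COMPASS complexes (Kmt2 enzymes) methylate histone H3 lysine 4 at promoters and enhancers. The Polycomb complexes PRC2 (Ezh enzymes) and PRC1 (Cbx readers) hold genes silent through H3 lysine 27 methylation. ATP-driven remodellers of the SWI/SNF, CHD and ISWI families slide or evict nucleosomes. In epidermis these systems are known to balance the proliferation of basal progenitors against the differentiation programme, and DNA methylation kept up by Dnmt1 is part of that balance.

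Reads in the listed genes ran from 9590718 to 12761458 per library, which is part of each library and not its sequencing depth. Of the keratinocyte markers, 10 of 14 were in the table, and their summed normalised reads ran from 661400 to 781900 in controls and from 1037000 to 1110000 in KA. The list divided, with 5 higher (Krt1, Krt14, Krt5, Flg and Ivl) and 5 lower (Krt15, Lor, Dsg1a, Dsc3 and Itgb4) and a median log2 fold change of -0.13, and the rise of its sum was carried by Krt1, Krt14 and Krt5. Markers of other cells also differed. The 8 Langerhans cell markers, all in the table, summed to 28520 to 39790 in controls and 53930 to 80220 in KA, and all 8 rose. Of 10 dermal fibroblast markers 4 were listed, with sums of 3099 to 4048 and 5313 to 6544. Vim and Fbln1 were higher and Col6a1 and Sparc lower, and the largest part of that sum was Vim, which other cells also express (2088 ± 414 in controls, SD, n = 3, and 4559 ± 507 in KA, SD, n = 4). Those of myeloid cells (7 of 12, of which 4 were higher and 3 lower) summed to 1004 to 1311 and 1849 to 2448, those of T cells (6 of 12, with 2 higher and 3 lower) to 1368 to 1739 and 1092 to 1234, those of endothelium (2 of 7) to 16.1 to 33.7 and 63.7 to 110.8, and the 1 listed melanocyte marker of 7 to 102.2 to 205.3 and 52.9 to 117.2. The markers of each list that the table does not hold were not analysed here. In bulk epidermis fewer cells of a type and less RNA per cell cannot be told apart, and the part of these cells in the results below was not tested.

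Promoter sequence was compared first, because the members fell into a higher and a lower set. RefSeq promoters on GRCm38.p6, 250 bases before to 50 after each start, were matched for 18 of the 21 members listed as higher (25 promoters) and 38 of the 47 listed as lower (50 promoters). Both strands were searched for the core of the NRF1 site (GCGCATGC), for E2F sites (TTTCCCGC, TTTCGCGC, TTTGCCGC or TTTGGCGC) and for the AP-1 site (TGANTCA). NRF1 is an activator of housekeeping genes and E2F factors drive S phase genes. The NRF1 core was present in 6 of 25 promoters of the higher members, a share of 24%, and belonged to 5 genes: Dnmt1, Smarca4, Smarca5, Smarcb1 and Smarcc1. It was present in 1 of 50 promoters of the lower members (2%, Scml2), in 4.45% of 6693 promoters of listed genes and in 2.71% of all 32851 promoters in the RefSeq table. An E2F site was present in 3 promoters of higher members (Dnmt1, Kat2a and Suv39h1) and in 1 of lower members (Sirt4). Its share was 3.53% in promoters of listed genes and 2.27% in all promoters. The AP-1 site was present in 1 of 25, in 4 of 50, in 6.38% of promoters of listed genes and in 7.81% of all. The median number of CG pairs was 24 in both sets of members, 18 in listed genes and 7 in all promoters. These counts describe letters in a fixed window and carry no test.

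The SWI/SNF motor subunits Smarca4 and Smarca2 are shown in full up to the start, since they are alternatives to each other in the same complex and were listed in opposite directions. Capitals mark the NRF1 core or an E2F site on either strand. The Smarca4 run is chr9:21615919-21616168 (plus strand) and the Smarca2 run is chr19:26604910-26605159 (plus strand).
Smarca4: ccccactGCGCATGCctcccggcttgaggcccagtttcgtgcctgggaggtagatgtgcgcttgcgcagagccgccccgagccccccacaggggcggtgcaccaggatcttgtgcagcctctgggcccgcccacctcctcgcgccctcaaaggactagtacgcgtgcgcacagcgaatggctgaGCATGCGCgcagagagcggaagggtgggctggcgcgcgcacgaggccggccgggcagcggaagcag
Smarca2: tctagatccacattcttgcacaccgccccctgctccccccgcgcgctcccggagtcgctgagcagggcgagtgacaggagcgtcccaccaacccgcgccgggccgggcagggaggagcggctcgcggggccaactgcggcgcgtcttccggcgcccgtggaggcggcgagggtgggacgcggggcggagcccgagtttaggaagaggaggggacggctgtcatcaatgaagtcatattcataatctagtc

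Windows of 60 bases around the match follow for 4 other members listed as higher, to show the match in its surroundings. They lie at chr8:80739547-80739606 (minus strand) for Smarca5, chr9:110131881-110131940 (plus) for Smarcc1, chrX:8074392-8074451 (minus) for Suv39h1 and chr11:100712493-100712552 (minus) for Kat2a. The matches begin 121, 117, 64 and 59 bases before the start.
Smarca5: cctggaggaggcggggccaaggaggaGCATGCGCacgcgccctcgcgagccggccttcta
Smarcc1: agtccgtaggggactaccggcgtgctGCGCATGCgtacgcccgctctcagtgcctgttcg
Suv39h1: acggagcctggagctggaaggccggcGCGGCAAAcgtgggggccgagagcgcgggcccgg
Kat2a: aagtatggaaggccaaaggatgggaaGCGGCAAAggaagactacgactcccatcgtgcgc

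KA epidermis was then compared with control epidermis. Most of the members were lower in KA. Of the members, 21 were higher and 47 lower in the authors' deposited table, a share of 69.1% lower against 47.4% of all listed genes, where 36.5% of the 19407 genes tested had been called, 19.2% higher and 17.3% lower. The counts were refitted with edgeR's quasi-likelihood test over the 6761 genes with enough reads. Of the 67 members tested, 14 were higher and 46 lower at an adjusted p-value below 0.05, against a background of 44% of tested genes higher and 47.5% lower, and 7 did not pass. The members' median log2 fold change was -0.66, and that of all tested genes was 0.22. The 7 that did not pass (Dnmt1, Hdac1, Kat2a, Kdm1a, Kmt5a, Prmt7 and Smarca4) were all listed as higher by the authors. The scaling factors of the refit (TMM) were estimated on the listed genes alone, which hold no set of uncalled genes to scale by. All 7 passed with the authors' size factors, so these calls depend on the scaling. With those factors 3547 of the 6761 tested genes were higher and 3211 lower, as follows from a table of genes the authors had called. A pass with them, here and below, is therefore not a second test. With the authors' size factors, which shift the median of all genes up by 0.134 on the log2 scale, 21 members were higher and 46 lower and the median was -0.53. After correction for gene length and GC content 19 members were higher and 28 lower, against 43.2% and 40.1% of all tested genes. The count of higher members was also sensitive to 1 library: without control 2 it was 9. The count of all tested genes higher went from 2976 to 2591 in that fit.

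The changes were mostly moderate. Of the members 54, or 79.4%, had a log2 fold change below 1 in size in the authors' deposited table, compared with 55.8% of listed genes. The members also had more reads, with a median normalised mean of 864.5 against 459.5 for listed genes. The part of that level in the comparison was not tested. In normalised reads (counts divided by 1 size factor per library) the KA and control libraries did not overlap in any of the 68 members, 21 higher and 47 lower, but 48.8% of listed genes were likewise higher and 44.5% lower without overlap, as follows from how the table was made.

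**Figure D1:**
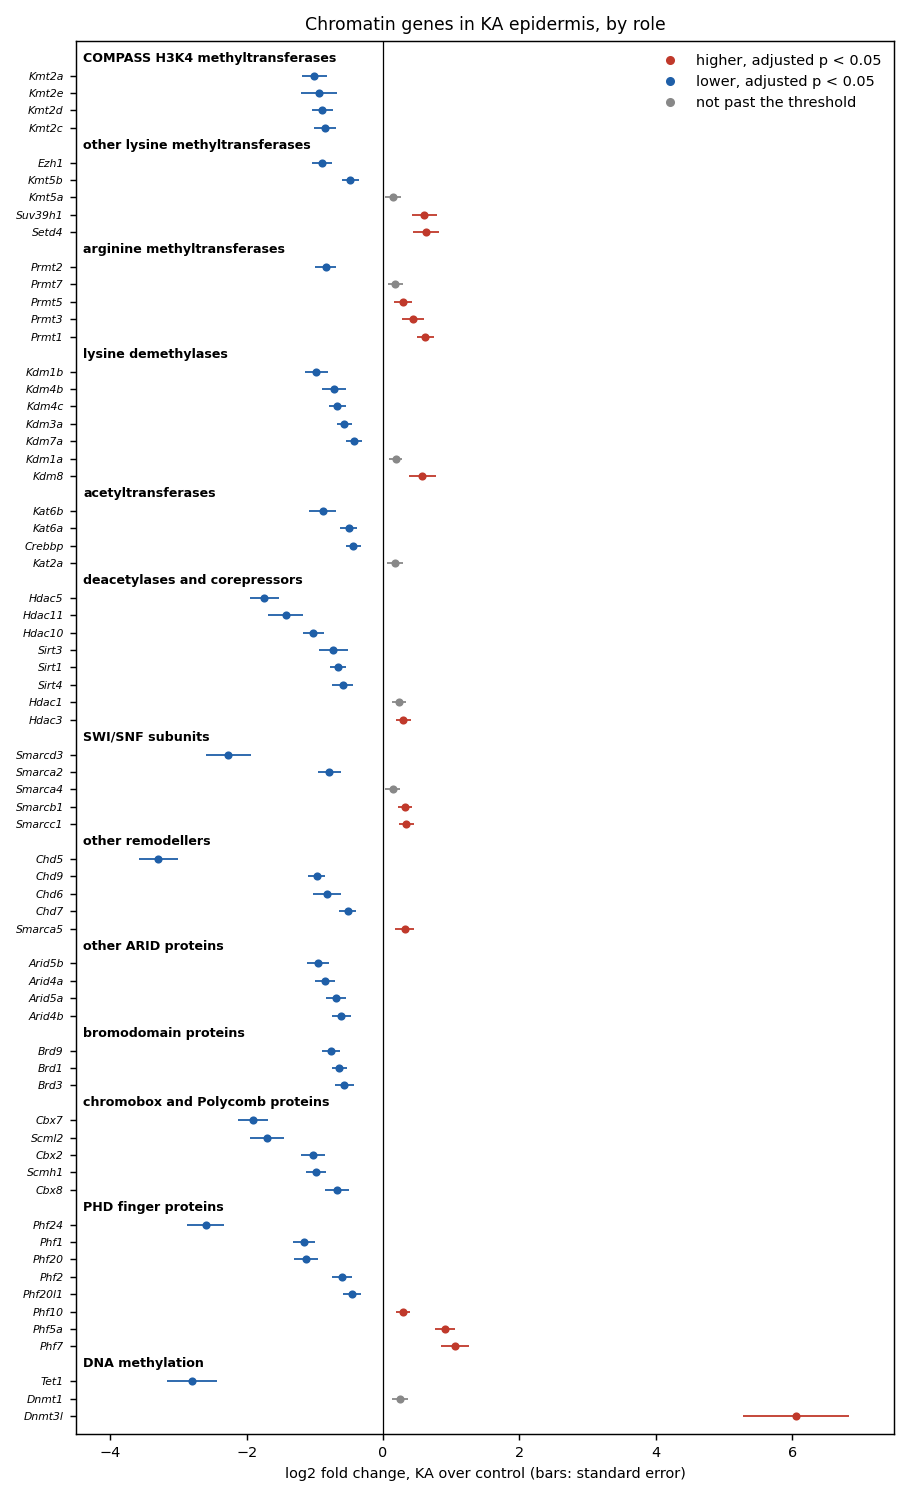
Log2 fold change of KA over control for the chromatin genes tested (all but 1 of the 67), grouped by role, with the standard error as a bar and the colour giving the call (red higher, blue lower, grey not past an adjusted p of 0.05). The chromobox and Polycomb, COMPASS (Kmt2 symbols), ARID and bromodomain groups lie wholly to the left of 0, and Dnmt3l stands at 6.05.

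Among the genes named for lysine methylation, the 4 with a Kmt2 symbol all fell, beside 47.5% of all tested genes. These were Kmt2a, Kmt2c, Kmt2d and Kmt2e, with a median log2 fold change of -0.92. The symbol alone put them in the COMPASS role group, which for Kmt2e need not mean a COMPASS enzyme. Kmt2d, which marks enhancers with H3 lysine 4 monomethylation and is studied as a regulator of epidermal differentiation, had 4642, 3581 and 3541 normalised reads in controls 1, 2 and 3, and 2042, 2229, 2616 and 2396 in KA 1, 2, 3 and 4. Every KA library lay below every control. The log2 fold change of Kmt2d was -0.89 ± 0.15 (SE; edgeR, adjusted p = 0.000492). Kmt2a, the mammalian homologue of trithorax, went from 1481 ± 223 (SD, n = 3) to 803 ± 153 (SD, n = 4) normalised reads, or -1.01 ± 0.18 on the log2 scale (SE; edgeR, adjusted p = 0.000759). These are long genes, with a median of 18300 exonic bases, and the length comparison below bears on them.

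The other lysine methyltransferases divided. Ezh1, the catalytic subunit of PRC2 that prevails in non-dividing cells, had 1553, 1423 and 1660 normalised reads in controls and 820, 857, 1129 and 836 in KA, and fell by 0.89 ± 0.15 on the log2 scale (SE; edgeR, adjusted p = 0.000449). KA 3 was nearest to the controls. Kmt5b, which adds the second and the third methyl group to H4 lysine 20, also fell, with a log2 fold change of -0.48, but was at 0.069 with the correction for length and GC content given below. Suv39h1, which writes H3 lysine 9 trimethylation in heterochromatin, rose from 314 ± 53.8 (SD, n = 3) to 525 ± 109 (SD, n = 4) normalised reads (log2 fold change 0.60), although KA 3, at 379.1, stood only just above control 3, at 374.5. An antisense gene, Gm14820, overlaps 14.6% of the exonic bases of Suv39h1. Setd4, a SET domain protein, had 138, 198 and 220 normalised reads in controls and 300, 287, 351 and 322 in KA. Its log2 fold change was 0.64 ± 0.19 (SE; edgeR, adjusted p = 0.00979). Kmt5a, which places the first methyl group on H4 lysine 20 and is needed for proliferation of epidermal progenitors, had 3447, 2929 and 2922 normalised reads in controls and 3944, 3663, 3717 and 3743 in KA. Its log2 fold change of 0.14 ± 0.11 (SE) did not pass (edgeR, adjusted p = 0.223), and with the authors' size factors it was 0.28 (edgeR, adjusted p = 0.0302).

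The arginine methyltransferases were the role group with the largest share of rises, 3 of 5 tested, with 1 lower. Of all tested genes 44% were higher and 47.5% lower, and the group is small. Prmt1, which makes most of the asymmetric dimethylarginine in cells and is known to keep epidermal progenitors undifferentiated, had 1395, 1749 and 1904 normalised reads in controls and 3152, 3012, 2478 and 2697 in KA. All KA libraries were higher, and the log2 fold change was 0.62 ± 0.13 (SE; edgeR, adjusted p = 0.00153). Prmt3 and Prmt5, the latter the main enzyme of symmetric dimethylation, rose by 0.44 and 0.30. Prmt2 fell, from 406, 342 and 354 normalised reads in controls to 235, 204, 245 and 214 in KA (log2 fold change -0.84 ± 0.15, SE; edgeR, adjusted p = 0.000793). Prmt7, at 0.18, did not pass.

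Of 7 lysine demethylases, 5 fell and 1 rose, beside 47.5% of all tested genes lower and 44% higher. Kdm1b, a flavin-dependent H3 lysine 4 demethylase, fell most, from 1110, 867 and 793 normalised reads in controls to 443, 489, 572 and 549 in KA. The log2 fold change was -0.98 ± 0.17 (SE; edgeR, adjusted p = 0.000521). Its paralogue Kdm1a, a subunit of corepressor complexes, had 1816, 1730 and 1745 in controls and 2230, 2279, 2241 and 2040 in KA, with a log2 fold change of 0.18 that did not pass. The H3 lysine 9 demethylases Kdm3a, Kdm4b and Kdm4c fell (log2 fold changes -0.57, -0.73 and -0.67), as did Kdm7a (-0.43), although Kdm7a was at 0.042 with the correction for length and GC content. Kdm8 rose from 82.4, 90.7 and 97.0 normalised reads in controls to 161, 162, 118 and 149 in KA (log2 fold change 0.57 ± 0.20, SE; edgeR, adjusted p = 0.0181). That call was lost in 7 of 23 alternatives, among them the fits without control 2 or without KA 2 and the fit corrected for length and GC content.

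Of the acetyltransferases and of the deacetylases, 3 of 4 and 6 of 8 tested members were lower, beside 47.5% of all tested genes. With the correction for length and GC content given below, 0 of the acetyltransferases and 6 of the deacetylases were lower. Kat6b, a catalytic subunit of the MOZ/MORF complexes, had 700, 519 and 501 normalised reads in controls and 257, 344, 367 and 390 in KA, or -0.89 ± 0.19 on the log2 scale (SE; edgeR, adjusted p = 0.0021). Kat6a, its paralogue, fell by 0.50 on that scale. Crebbp, which acetylates H3 lysine 27 at enhancers, went from 1289, 1340 and 1500 to 1041, 1095, 1147 and 1178, or -0.43 ± 0.12 on the log2 scale (SE; edgeR, adjusted p = 0.00535). After the length trend over all genes was taken off, the Crebbp value changed sign, to 0.050. Kat2a, the acetyltransferase of the SAGA complex, had a log2 fold change of 0.17 that did not pass.

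Hdac5, a class IIa deacetylase that shuttles between nucleus and cytoplasm, had the largest difference in mean normalised reads of all members. It had 6194, 4893 and 4637 normalised reads in controls and 1189, 1613, 2153 and 1902 in KA, or -1.74 ± 0.21 on the log2 scale (SE; edgeR, adjusted p = 9.91e-05). Per kilobase of exon it was the most abundant of the 68 members in controls, at 597 normalised reads per kb, and the 17th in KA, at 195. Prmt1 moved from place 6 to place 1 on that scale, from 491 to 828, and the splicing factor gene Phf5a from place 9 to place 2, from 387 to 797. Hdac10, which deacetylates polyamines, and Hdac11, the class IV enzyme, also fell, with log2 fold changes of -1.03 and -1.43. The sirtuins Sirt1, a nuclear deacetylase, and Sirt3 and Sirt4, which act in mitochondria and not on chromatin, had log2 fold changes of -0.66, -0.73 and -0.60, all past the threshold. Other annotated genes overlap 17.9% of the exonic bases of Hdac11 and 12.7% of those of Sirt3.

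The class I deacetylases analysed here were Hdac1 and Hdac3, of which Hdac3 passed the test. Hdac3, the catalytic subunit of the NCoR/SMRT corepressors, rose from 1761, 2068 and 2162 normalised reads in controls to 2731, 2782, 2839 and 2420 in KA. The log2 fold change was 0.30 ± 0.11 (SE; edgeR, adjusted p = 0.0273), and the call was lost without control 1, control 2, KA 2 or KA 3. Hdac1, a subunit of the NuRD, SIN3 and CoREST complexes, had 1901, 1929 and 2034 in controls and 2572, 2374, 2405 and 2747 in KA. Its log2 fold change of 0.24 ± 0.11 (SE) lay just outside the threshold (edgeR, adjusted p = 0.053). With the authors' size factors it was 0.37 (edgeR, adjusted p = 0.00863). Hdac9 had too few reads for the test, with 21, 4 and 9 counts in controls and 0, 0, 1 and 0 in KA. Against a floor of 3 counts per KA library its normalised reads were at least 3.3-fold higher in controls.

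Within SWI/SNF, 2 of 5 subunits rose and 2 fell, beside 44% of all tested genes higher and 47.5% lower. Smarcd3, a subunit best known from heart and muscle, had 253, 207 and 184 normalised reads in controls and 22.8, 46.2, 67.9 and 57.1 in KA, or -2.27 ± 0.33 on the log2 scale (SE; edgeR, adjusted p = 0.000229). However, 48.2% of its exonic bases overlap Chpf2 on the opposite strand, and the strand setting of the counting is not given in the sources used here, so reads of the 2 genes cannot be told apart. Smarca2, an alternative ATPase, fell from 2033, 2036 and 1983 to 921, 1332, 1384 and 1466, or -0.79 ± 0.17 on the log2 scale (SE; edgeR, adjusted p = 0.00174). The core subunits Smarcc1 and Smarcb1 rose. Smarcc1 had 1481, 1396 and 1436 in controls and 2179, 1998, 1789 and 2042 in KA, or 0.34 ± 0.11 on the log2 scale (SE; edgeR, adjusted p = 0.0111), and that of Smarcb1 was 0.32. Smarca4, the other ATPase and a regulator of epidermal differentiation, had 3475, 3293 and 3234 in controls and 4377, 3939, 3741 and 4076 in KA. Its log2 fold change of 0.14 ± 0.10 (SE) did not pass (edgeR, adjusted p = 0.213). With the authors' size factors the Smarca4 value was 0.27 (edgeR, adjusted p = 0.0304). Smarca4, Smarcb1 and Smarcc1 are 3 of the 5 higher members whose promoters hold the NRF1 core.

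Of the other remodellers, 4 of 5 fell, beside 47.5% of all tested genes. Chd5, a CHD remodeller best known from neurons and testis, fell most of all tested members, from 143, 101 and 152 normalised reads in controls to 14.8, 11.3, 18.8 and 13.5 in KA. On the log2 scale the difference was -3.30 ± 0.28 (SE; edgeR, adjusted p = 1.65e-05). Chd6, Chd7 and Chd9 fell too, at -0.82, -0.52 and -0.98, and Chd7 was at 0.043 with the correction for length and GC content. Smarca5, the ATPase of ISWI complexes, had 1714, 1815 and 1598 in controls and 2921, 2291, 1859 and 2308 in KA. Its rise of 0.32 ± 0.14 (log2, SE) was at the edge of the threshold (edgeR, adjusted p = 0.0492) and was lost in 14 of 23 alternatives, among them each fit without 1 control or without KA 1, KA 2 or KA 4.

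**Figure D2:**
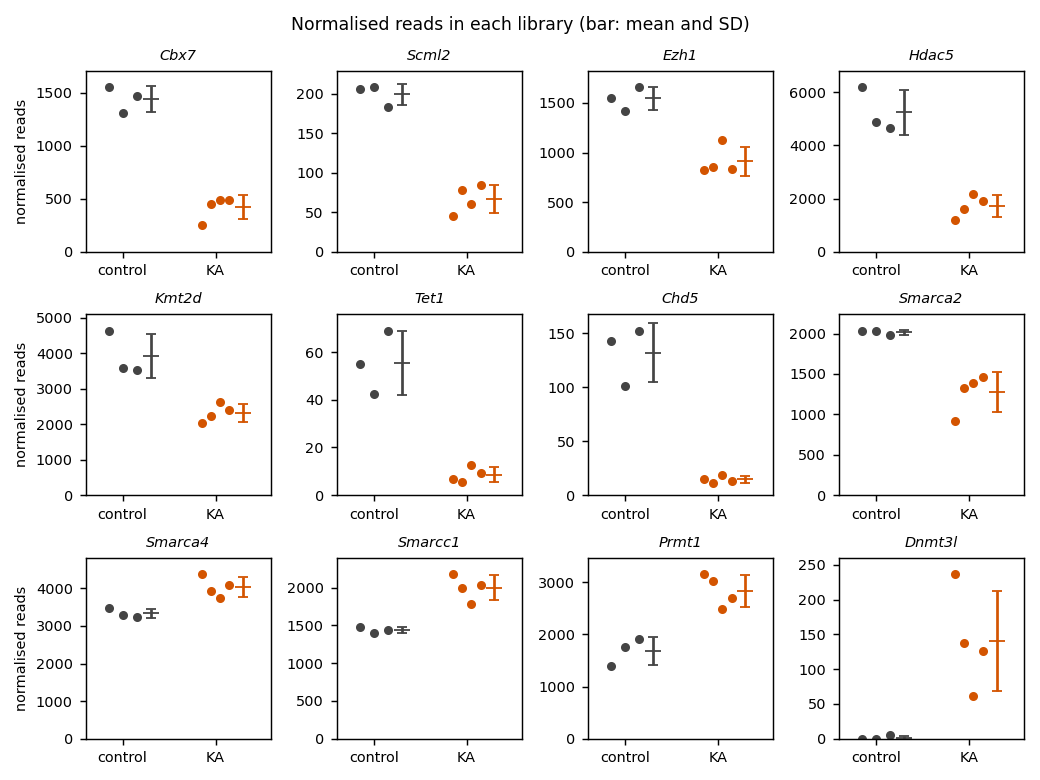
Normalised reads of 12 chromatin genes in each of the 3 control (grey) and 4 KA (orange) libraries, with the mean and SD as a bar beside the points, each axis starting at 0. In every panel the groups do not overlap, Hdac5 drops from 4637 or more to 2153 or less, and Dnmt3l is at 0 in 2 controls.

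The 4 other ARID proteins, which bind DNA and recruit partner enzymes, all fell, beside 47.5% of all tested genes. Arid5b, a partner of the demethylase Phf2, had 1151, 1485 and 1740 normalised reads in controls and 744, 765, 785 and 982 in KA (log2 fold change -0.96 ± 0.16, SE; edgeR, adjusted p = 0.000504). Arid4a and Arid4b, linked to the SIN3 corepressor, fell, with values of -0.85 and -0.61, as did Arid5a with -0.69. The bromodomain proteins, readers of acetylated lysine, were 3 and all fell, beside the same share of all tested genes. Brd9, of the non-canonical SWI/SNF complex, had 1357, 1258 and 1068 in controls and 745, 801, 789 and 853 in KA, or -0.76 ± 0.13 on the log2 scale (SE; edgeR, adjusted p = 0.000611). Brd1, a scaffold of acetyltransferase complexes, and the BET reader Brd3 stood at -0.64 and -0.57. With the correction for length and GC content given below, Arid4b (-0.012), Arid5a (-0.11) and Brd3 (-0.25) did not pass. Arid4a, Arid5b, Brd1 and Brd9 were still lower.

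All 6 chromobox and Polycomb members fell, with a median log2 fold change of -1.05, against 47.5% of tested genes lower. Cbx7, a chromobox reader of H3 lysine 27 trimethylation in PRC1, had 1552, 1311 and 1468 normalised reads in controls and 256, 445, 491 and 486 in KA. The lowest control had 1311 and the highest KA library 491, and the log2 fold change was -1.91 ± 0.22 (SE; edgeR, adjusted p = 7.65e-05). The further PRC1 readers Cbx2 and Cbx8 fell (log2 -1.03 and -0.68), and so did the Polycomb-associated Scml2 and Scmh1 (-1.70 and -0.98). Phf1, an accessory subunit of PRC2 counted below with the PHD finger genes, fell by 1.16, and 39.3% of its exonic bases overlap Cuta.

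The PHD finger genes share a domain and not a complex, and of 8 tested 3 rose and 5 fell. Of all tested genes 44% rose and 47.5% fell. Phf24, whose product is known from neurons, had 598, 425 and 453 normalised reads in controls and 68.2, 76.6, 135.8 and 73.7 in KA, or -2.60 ± 0.27 on the log2 scale (SE; edgeR, adjusted p = 3.9e-05). Phf7, a histone ubiquitin ligase known from testis, had 69.1, 83.5 and 89.0 in controls and 173, 162, 210 and 190 in KA, or 1.06 ± 0.20 on the log2 scale (SE; edgeR, adjusted p = 0.00104). Phf5a, a subunit of the splicing factor SF3B, rose by 0.91, and Phf10, a subunit of a SWI/SNF variant, by 0.29. Phf20, the demethylase Phf2 and Phf20l1 fell, with log2 fold changes of -1.14, -0.60 and -0.46, but with the correction for length and GC content Phf20l1 was at 0.17.

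The DNA methylation genes held the largest rise of the set. Dnmt3l, a catalytically inactive partner of the de novo methyltransferases that is known from germ cells, had 0, 0 and 4.81 normalised reads in controls and 236, 137.5, 61.6 and 127 in KA. The 4.81 normalised reads of control 3 were 6 counts, so the size of the fold change (log2 6.05 ± 0.78, SE; edgeR, adjusted p = 0.000137) rests on those few reads. Tet1, which oxidises methylcytosine, was low in all libraries and fell from 54.9, 42.3 and 69.0 in controls to 6.92, 5.63, 12.5 and 9.34 in KA. On the log2 scale Tet1 stood at -2.80 ± 0.37 (SE; edgeR, adjusted p = 0.000133). Dnmt1, the maintenance methyltransferase, had 2378, 2260 and 2228 in controls and 2918, 2782, 2834 and 3389 in KA. Its log2 fold change of 0.25 ± 0.12 (SE) did not pass (edgeR, adjusted p = 0.0641). With the authors' size factors the Dnmt1 value was 0.38 (edgeR, adjusted p = 0.00937).

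Ratios between members within a library do not depend on how libraries are scaled, and 6 pairs of related genes were picked after their values had been seen. Each sets a member listed as higher over one listed as lower, both without overlap. The KA ratios therefore had to lie above those of the controls, and only their size is described. Smarca4 over Smarca2, in reads per kb of exon, went from 3.77, 3.56 and 3.59 in controls to 10.5, 6.52, 5.96 and 6.13 in KA, a mean ratio 2.00 times as high. KA 1 had the highest ratio. Hdac1 over Hdac5 went from 0.782, 1.00 and 1.12 to 5.51, 3.75, 2.85 and 3.68, 4.08 times as high. Both genes were thus near the same level per kb in controls, and Hdac1 was the more abundant in all KA libraries. Kdm1a over Kdm1b rose from a mean of 2.06 ± 0.303 (SD, n = 3) to 4.59 ± 0.657 (SD, n = 4), and Prmt1 over Prmt2 from 4.58 ± 1.04 (SD, n = 3) to 12.6 ± 1.94 (SD, n = 4). The genes of these last 2 pairs are of similar length, 5179 and 5495 exonic bases for Kdm1a and Kdm1b and 3425 and 3381 for Prmt1 and Prmt2. In the others (also Kat2a over Kat6b, 2.12 times as high, and Kmt5a over Kmt5b, 1.55 times) the gene above is the shorter.

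**Figure D3:**
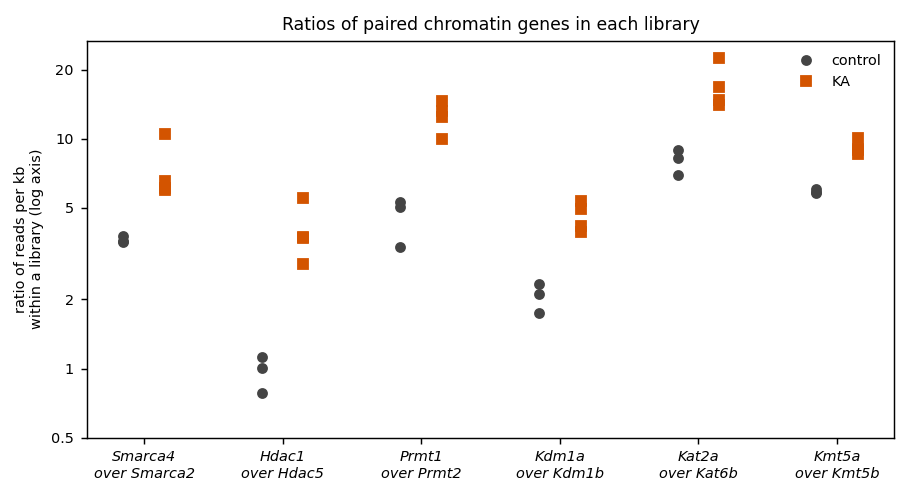
Ratio of reads per kilobase of exon between related chromatin genes within each library, on a log axis, for 3 controls (grey circles) and 4 KA libraries (orange squares). For each of the 6 pairs every KA library lies above every control, as follows from setting a member listed as higher over one listed as lower. Hdac1 over Hdac5 passes from 1.12 or less to 2.85 or more.

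Gene length had to be considered, because long genes tended to be lower in KA across the whole table. The members were long, with a median of 6481 exonic bases against 3822 for listed genes, and those listed as lower were longer (8225) than those listed as higher (5270). All tested genes were divided by length into 4 classes of equal size. The share of genes lower was 32.8% in the class of shortest genes, then 40.7% and 52.8%, and 63.7% in that of the longest. Of the members, 1 of 3, 5 of 9, 11 of 21 and 29 of 34 were lower in the same classes. In the longest of 10 such classes (9192 bases and more) all 19 members were lower, as were 69.2% of genes. Had the members of each of the 4 classes followed the share of its genes, 37.4 would have been lower and 24.2 higher, compared with 46 and 14 observed. With 10 classes these numbers were 38.5 and 23.2. With 4 classes of the span from gene start to end they were 34.9 and 26.6. The members' median distance from the length trend was -0.27.

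A fit corrected for length and GC content gave 19 members higher and 28 lower, compared with 14 and 46 without it. Of all tested genes, 43.2% were higher and 40.1% lower in that fit, with a median log2 fold change of 0.11. The members' share lower, 41.8%, was then close to that of all genes, and their share higher, 28.4%, was below it. All 28 had been lower before, and 18 others no longer passed, of which 5 (Chd7, Crebbp, Kdm7a, Kmt5b and Phf20l1) were above 0. The role groups parted here. The 6 chromobox and Polycomb members and the 6 deacetylases and sirtuins kept their falls, with Cbx7 at -1.56 and Hdac5 at -1.24 on the log2 scale. Of the 4 members with a Kmt2 symbol, Kmt2a at -0.39 was the one still lower (edgeR, adjusted p = 0.0122). Kmt2e at -0.50 (edgeR, adjusted p = 0.05004), Kmt2c at -0.18 (edgeR, adjusted p = 0.175) and Kmt2d at -0.10 (edgeR, adjusted p = 0.409) did not pass. Of the demethylases Kdm1b, Kdm4b and Kdm4c were still lower, and Kdm3a (edgeR, adjusted p = 0.0519) and Kdm7a did not pass. Phf2 did not pass either (edgeR, adjusted p = 0.0566). Of the ARID and bromodomain members, Arid4b, Arid5a and Brd3 did not pass. None of the acetyltransferases was lower, with Kat6b at -0.28 (edgeR, adjusted p = 0.084). Of the remodellers Chd5, at -2.78, remained lower, and Chd6, Chd7 and Chd9 did not pass. Smarca2, at -0.24, did not pass (edgeR, adjusted p = 0.0938). Of the members that had not passed, 6 became higher: Dnmt1 at 0.60, Smarca4 at 0.50, Prmt7 at 0.46, Kdm1a at 0.36, Kmt5a at 0.31 and Kat2a at 0.27. Of the higher members Kdm8, at 0.44, no longer passed (edgeR, adjusted p = 0.0557). Why long genes were lower was not tested.

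**Figure D4:**
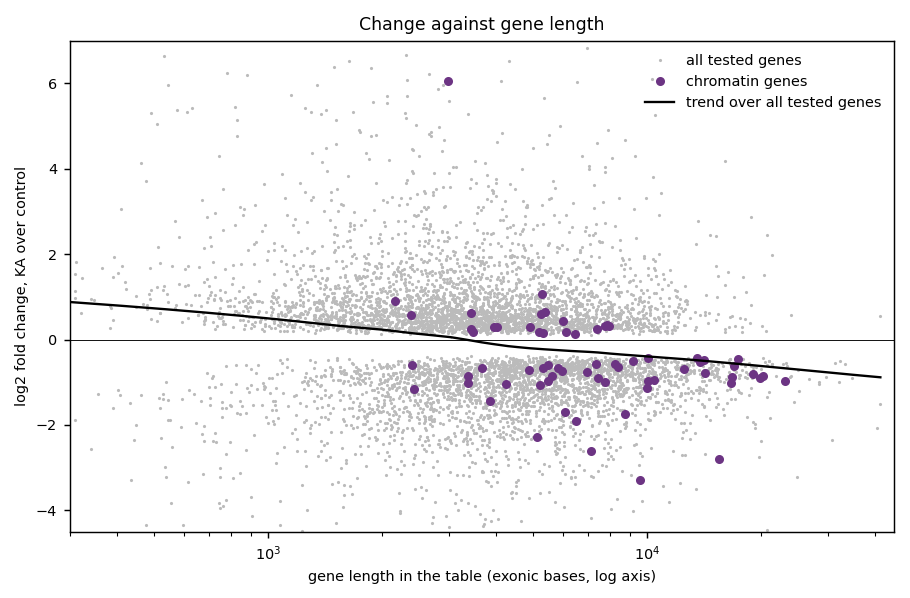
Log2 fold change of KA over control against exonic gene length (log axis) for tested genes (grey) and the 67 tested chromatin genes (purple). The line is the trend over all 6761 tested genes, and genes beyond the axes, among them very short ones, are not shown. The gap around 0 follows from the table holding only genes called by the authors, the line falls with length, and the members past 9192 bases all lie below 0.

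Genes that work with the members were read from further lists. For each list the shares of all tested genes to set beside it were 44% higher and 47.5% lower. Of 27 Polycomb partners 8 were in the table, 3 higher and 5 lower by the refit. Rnf2, the PRC1 ubiquitin ligase, fell from 838 ± 37.3 (SD, n = 3) to 496 ± 59.2 (SD, n = 4) normalised reads, a log2 fold change of -0.89. Bmi1, Pcgf2, Pcgf5 and Phc3, also of PRC1, fell (-0.73, -0.58, -0.64 and -0.90), whereas Phc2 and L3mbtl2 rose by 0.37 and 0.43. Aebp2, an accessory subunit of PRC2, rose by 0.40. Of 16 SWI/SNF partners 6 were listed, 1 higher (Actl6a, which restrains epidermal differentiation, 0.41) and 4 lower, with Bcl7a at -1.11 and Ss18 at -0.85. The 5 listed of 14 COMPASS partners divided into 2 higher (Ash2l 0.28 and Dpy30 0.48) and 2 lower (Bod1l -0.59 and Hcfc2 -0.65). NuRD and SIN3 partners had 2 higher and none lower of 5 listed among 20, by edgeR at an adjusted p below 0.05.

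Of the ISWI, INO80 and SRCAP partners 11 of 24 were listed. The helicases Ruvbl1 and Ruvbl2 rose by 0.58 and 0.47 and Znhit1 by 0.56, while 5 fell, among them Baz2b at -0.82 and Rsf1 at -0.64. Of 23 further histone and DNA methylation enzymes 11 were listed, 6 higher and 4 lower. Uhrf1, which brings Dnmt1 to replicated DNA, went from 982 ± 117 (SD, n = 3) to 1578 ± 390 (SD, n = 4) normalised reads, a log2 fold change of 0.55. Histone chaperones, which load and unload histones, had 11 of 20 in the table, 8 higher and none lower. Asf1b and Chaf1a, which deliver new histones behind the replication fork, rose by 1.05 and 0.53. The medians of these lists ran from -0.70 (SWI/SNF partners) to 0.50 (histone chaperones), beside 0.22 for all tested genes.

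Markers of S phase and mitosis differed between the groups as well. All 23 listed of 30 rose, with a median log2 fold change of 1.67, and their summed normalised reads were 10470, 12150 and 13020 in controls and 35480, 28700, 20440 and 34060 in KA. KA 3 had the lowest sum of the KA libraries. Of the 21 members listed as higher, the KA library nearest to the controls was KA 1 in 0, KA 2 in 6, KA 3 in 11 and KA 4 in 4. Of the 47 listed as lower it was KA 1 in 2, KA 2 in 1, KA 3 in 26 and KA 4 in 18. The order in the higher members is that of the sums, from KA 3 through KA 2 and KA 4 to KA 1. In the lower members it is not, since KA 4 came next after KA 3. Whether cycling cells had a part in these differences was not tested.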

How the data were processed

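RNA was measured by bulk sequencing of libraries made with the NEBNext Ultra RNA kit, per the labels' protocols. The submitters' processing notes name fastp, STAR 2.6.1d, featureCounts 1.5.0-p3, DESeq2 1.40.2 and mm10, with no order or settings. Per the file headers, the deposited table gives raw counts per gene, normalised reads (the authors' signal: counts over 1 size factor per sample, from 0.888 to 1.247), and the authors' log2 fold change, test score and p-values. Its largest adjusted p-value of the authors is 0.04995, over 19407 genes.

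Counts as deposited were fitted with edgeR 4.0.16 (TMM, filterByExpr, robust glmQLFit and glmQLFTest, R 4.3.3), with Benjamini-Hochberg adjustment over 6761 genes at 0.05. The filter left out 330 genes. Each standard error was obtained by dividing the log2 fold change by the root of its F statistic. Each library is from 1 mouse. The code was tested on simulated data. Gene length is the deposited one, GC content and overlaps come from GENCODE M21 (7086 of 7091 identifiers found), and the length trend is a loess of span 0.5.

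The members, lists and tests were chosen with earlier results of these data known. Named genes were, in each of 13 role groups, the called genes with the largest rise and fall (mean CPM 2 or more), and regulators studied in epidermis. This gave 28 genes, of which 1 is counted with its group but not reported here by name. Smarca2, Phf5a, Hdac9 and the genes named with a single value were added after their values were seen. Alternatives covered factors, filters, DESeq2 1.42.0, limma-voom (limma 3.58.1), covariates, blocks, left-out libraries, stricter thresholds and length.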

Additional observations from a re-analysis of the deposited data

Results flagged for a closer look

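In 4 of the 68 members KA 3 lay far from the other 3 KA libraries: its gap to the nearest of them, as a share of the range of all 4, passed Dixon's critical value for 4 samples. Chance gives about 3.4 such genes of 68, 1 in 20. The share was 0.959 for Kat2a, where KA 3 had 1068 normalised reads and the others 1195 to 1201. It was 0.879 for Ezh1, with 1129 against 820 to 857, and 0.876 for Phf24, with 135.8 against 68.2 to 76.6. For Hdac9 it was 1, which rests on 1 read in KA 3 and 0 in the others. In each of these genes KA 3 was displaced towards the controls.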

How the results depend on the processing

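The 14 higher members became 7 with a replicate block by sample number, 5 in females alone, 8 with adjustment over all 19407 genes, 6 at an adjusted p under 0.01, 2 with a log2 fold change of at least 1, and 9 to 13 with 1 library left out. The 46 lower members became 28 with the length and GC correction, 26 with that correction and the replicate block (41.8% and 38.8% of members, beside 40.1% and 36.1% of all tested genes), and 14 with a log2 fold change of at least 1. Of all tested genes, 2976 were higher in the main fit. That count was 2562 with the replicate block, 1802 in females alone, 2407 with adjustment over 19407 genes and 2079 at an adjusted p under 0.01. With 1 library left out it ran from 2591 to 2935. With a log2 fold change of at least 1, 1144 of all tested genes were higher and 1662 lower. The members' median of -0.66 became -0.53 with the authors' size factors, -0.27 off the length trend, -0.24 with the length and GC correction and -0.23 with the block added. Crebbp became positive in the last 3: 0.050, 0.12 and 0.15. The deviations of same-numbered libraries from their group means had correlations of -0.202, 0.148 and -0.0913. With so few libraries these values cannot settle whether the numbers pair the mice. The titles give same-numbered libraries the same letter, whose meaning is not stated, and KA 4 had no partner by number. Under the block Kdm8, Smarca5 and Smarcc1 were the named genes that no longer passed. Of 672 values for the 28 named genes under alternatives, 599 kept their direction and side of the threshold, 35 fell below it, 14 rose past it, 21 moved without a test and 3 changed sign. Of the 28, 17 kept their call in all of them. The causes were not tested. Depth is unknown, since the table is a part of each library.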
